A study of Mus musculus with 10 samples.

Results

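The 35 genes described here encode the machinery of DNA replication and the regulators of entry into S phase, and their RNA was measured in 5 preparations of mouse bone marrow mesenchymal stromal cells (MSC I to MSC V). The members were the listed genes for which a probe set of the array carried that gene's symbol and no other, with the probe set of the highest mean over the arrays used where a gene had more than 1. All 35 were found among 19938 named genes, and all 35 passed the filter on low values that left 10971 genes for the tests. They comprise 6 subunits of the MCM helicase, 4 origin recognition and licensing factors, 5 factors that activate the helicase, 6 subunits of DNA polymerases and primase, 4 of the sliding clamp and its loader, 2 enzymes that join Okazaki fragments, 4 enzymes of nucleotide supply, and 4 regulators of the G1/S transition and of chromatin at the fork.

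DNA is copied once in each cell cycle. In G1, the origin recognition complex, Cdc6 and Cdt1 load the ring of Mcm2 to Mcm7 onto DNA as an inactive double hexamer. At the start of S phase, cyclin E with its kinase partner and further factors bring Cdc45 and the GINS complex to the ring, which then unwinds DNA ahead of the polymerases. Many of these genes are targets of E2F transcription factors, which the retinoblastoma protein restrains in resting cells, so that their RNA is low in cells outside the cycle and rises before S phase.

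Mesenchymal stromal cells are spindle-shaped cells that grow out of marrow on plastic and can give rise to bone, fat and cartilage cells. All 5 preparations came from bone marrow of female C57BL/6J mice aged 6 to 8 weeks and were grown in a commercial medium for mouse mesenchymal cells to passage 16 to 17. Total RNA of each was put on 2 Affymetrix arrays, 10 in all, and the labels name no treatment and no control preparation. They do not say whether the 2 arrays of a preparation came from separate cultures, so the p-values below reflect array-to-array spread, which could be purely technical.

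Levels are the deposited log2 values, in which a difference of 1 is a doubling, and no detection calls came with them. The 10 array medians lay between 6.45 and 6.63, and the median of the whole table was 6.55. In each of the 35399 probe sets of the table, the mean of the 5 replicate 1 arrays equalled that of the 5 replicate 2 arrays within 0.0001 log2. The values therefore hold 1 degree of freedom fewer than the number of arrays, and a fit with the replicate number as a term leaves 4 residual degrees of freedom in place of 5. The counts of that fit, whose degrees of freedom are those that the values hold, are given beside the others as "with the replicate block". For the same reason the 5 differences between the arrays of each preparation sum to 0 for every gene, and a shift common to all replicate 1 arrays cannot be seen. Of 10 stromal markers with a named probe set, 7 or 8 lay above the table median in both arrays of each preparation, and Itgb1, Pdgfrb, Col1a1, Col1a2 and Cd44 did so in all 10 arrays. Eng, a stromal marker that is also found on endothelial cells, was at 9.69 and 9.50 in MSC IV and under the table median in the other 8 arrays. Other stromal markers also differed in MSC IV: Nt5e was at 10.75 and 11.66 there and at most 8.27 elsewhere (4.26 log2, adjusted p = 0.000124), Vcam1 at 7.03 and 6.46 (-3.49, adjusted p = 0.000128) and Pdgfra at 6.56 and 7.67 (-2.36, adjusted p = 0.00904). The blood cell markers Ptprc, Itgam, Adgre1, Csf1r, Cd3e, Ly6g and Spi1 and all 7 endothelial markers were under the table median in all 10 arrays, whereas Kit, a receptor of blood progenitors and mast cells, was at 10.52 and 10.16 in MSC I. Cd68, a macrophage marker, was above the table median in 9 arrays and highest in MSC V, at 8.53 and 8.55 (1.60 log2 against the others, adjusted p = 0.000775), and Cd14, a monocyte marker, was above it in 3 arrays and also highest there, at 7.20 and 6.71 (0.98 log2, adjusted p = 0.021). Both were lowest in MSC IV by preparation mean, with differences of -0.82 (adjusted p = 0.00379) and -0.84 log2 (adjusted p = 0.0153). The part of cells with these markers in the results below was not tested.

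The preparations differed in 18 of the 35 replication genes, or in 10 with the replicate block, and MSC IV was the lowest in most. It had the lowest mean for 30 of the 35 members, MSC II for 3 and MSC I for 2, while the highest mean was in MSC I for 14, in MSC III for 12, in MSC V for 8 and in MSC II for 1. Over all tested genes, MSC IV had the lowest mean for 24.1%. A moderated F test over the 5 preparations with limma, adjusted over all tested genes by the method of Benjamini and Hochberg, called 18 of the 35 members at an adjusted p under 0.05 with a range of preparation means of at least 1 log2. Of all tested genes 29.1% were called. With the replicate block 10 of the 35 members were called, a share near the background of 24.8%. Those 10 were Mcm3, Mcm4, Mcm6, Pola1, Prim1, Pcna, Rrm2, Tk1, E2f1 and Ccne1. The count fell to 5 without the second array of MSC IV, to 9 without its first, to 10 without the first array of MSC I and to 11 with no filter on low values. The widest ranges of means were those of Tk1 (2.87 log2, 7.29-fold) and Rrm2 (2.82 log2, 7.08-fold), and the smallest adjusted p was that of Mcm6 (0.00302). Of the 17 members not called, 8 had a range of at least 1 log2 and 9 a narrower one.

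**Figure D1:**
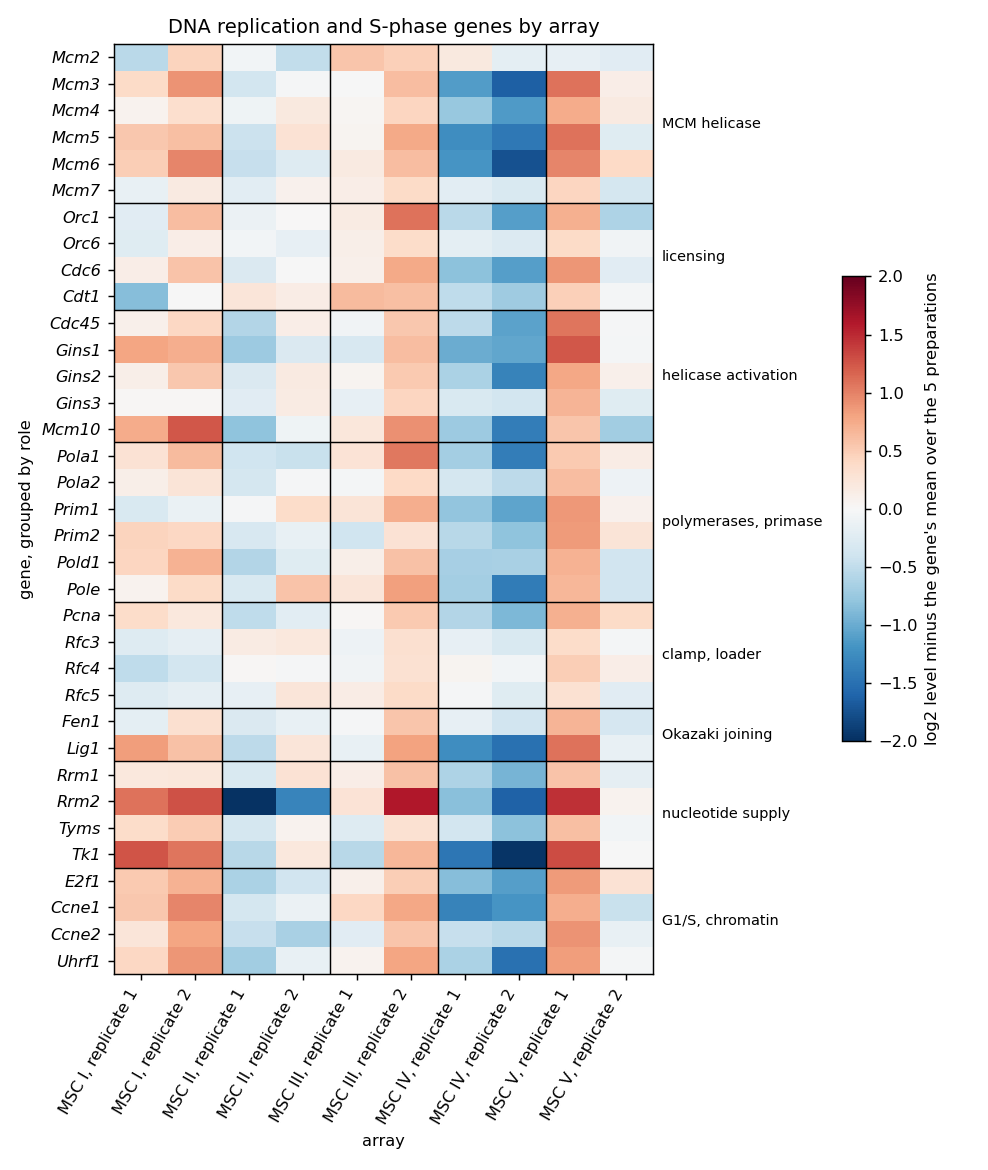
Each cell is the log2 level of a gene (row, grouped by role) in an array (column) minus that gene's mean over the 5 preparations. The columns of MSC IV are blue for most genes and darkest for Tk1 in replicate 2, the replicate 1 array of MSC V is red for most genes, and the rows of Mcm2, Mcm7, Orc6, Rfc3, Rfc4 and Rfc5 are paler than most.

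Set against the mean of the other four preparations, MSC IV had 17 members called lower and 0 called higher, where 7.7% of all tested genes were called lower and 3.29% higher. With the replicate block 15 were called lower, against a background of 7.16%; Mcm10 and Rrm2 were the 2 that missed the threshold. The difference was below 0 for 34 of the 35 members, with a median of -1.02 log2 over the members and 0.01 over all tested genes, and 26 members had an unadjusted p under 0.05, against 45.2% of all tested genes. Differences below are given in log2 with the standard error of the fit without the block (2 arrays of MSC IV and 8 others). That fit counts 1 residual degree of freedom too many, so its standard errors and adjusted p-values tend to be too small. With the block, limma gave a standard error of 0.247 and an adjusted p of 0.00383 for Mcm6 in MSC IV. For Gins1 the block gave 0.363 and 0.047. For 20 members both arrays of MSC IV lay below the other 8 arrays, which was so for 12.1% of all tested genes. A further 6 members, Cdt1, Prim2, Pold1, Pcna, Rrm1 and Tyms, passed the adjusted p of 0.05 with a smaller difference than 1 log2. With the replicate block Prim2, Pcna and Rrm1 still passed it, and Cdt1, Pold1 and Tyms did not. The count rests on both arrays of MSC IV, and more on the second, which was the lower of the pair for 33 members. Without the second array Mcm6, E2f1 and Ccne1 alone kept their calls, and none did with the replicate block as well. Without the first array calls were also lost in both fits, among them Mcm5, Cdc6, Gins1, Mcm10, Lig1 and Rrm2. In these fits the lone array of MSC IV was assumed to vary like the other preparations. With no filter on low values 13 were called, and 14 when MSC I was taken out of the mean of the others. Of up to 28 alternative settings, Mcm6 and E2f1 were called in 27, while Uhrf1 was called in 21, Cdc6 in 19, Pole in 18, Gins1 in 16 and Mcm10 and Rrm2 in 12 each; the other 9 were called in 24 to 26. In RNA from a whole culture, fewer cells in S phase and less of these RNAs in each cell cannot be told apart.

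**Figure D2:**
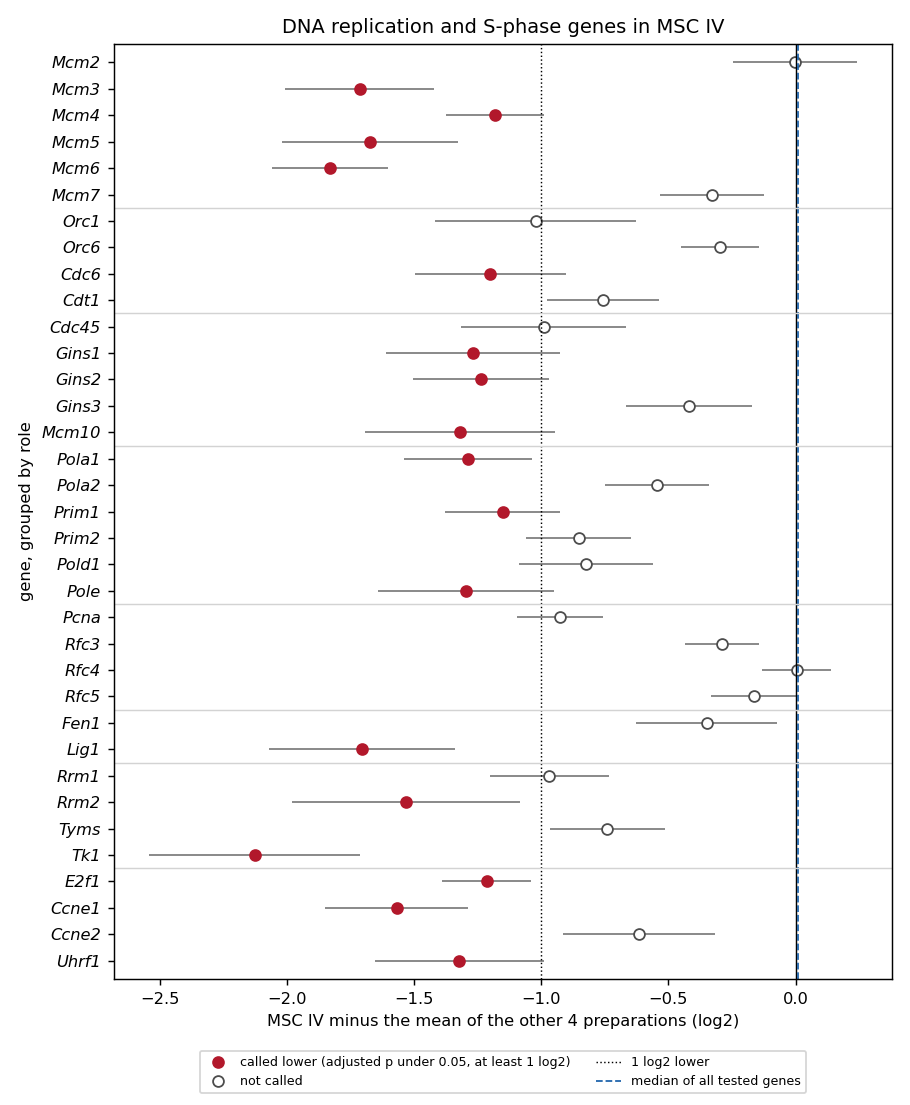
Points are the log2 level of MSC IV minus the mean of the other 4 preparations for each member, with bars of 1 standard error from the limma fit on 10 arrays; filled points were called lower. The lowest point is that of Tk1 at -2.13, those of Mcm2 and Rfc4 lie at the zero line, and 34 of 35 are below 0.

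Among the subunits of the MCM ring, the helicase core that opens the double strand, 4 of 6 were lower in MSC IV, and the remaining pair, Mcm2 and Mcm7, was not called in any comparison. Mcm6 was at 8.69 and 8.13 in MSC IV, against 10.37 and 10.86 in MSC I, 9.41 and 9.62 in MSC II, 10.05 and 10.50 in MSC III and 10.85 and 10.28 in MSC V. Both arrays of MSC IV lay below all others, the MSC II arrays came next, and MSC I, III and V overlapped one another. The difference of MSC IV from the others was -1.83 ± 0.23 log2 (3.56-fold lower; adjusted p = 0.00124), and its adjusted p lay between 0.000938 and 0.0708 over the alternative settings. Mcm3 was at 8.54 and 8.02 in MSC IV, against 10.04 and 10.56 in MSC I, 9.29 and 9.63 in MSC II, 9.64 and 10.27 in MSC III and 10.74 and 9.78 in MSC V. Its difference was -1.72 ± 0.29 log2 (3.28-fold lower; adjusted p = 0.00468), again with no overlap between MSC IV and the rest. Mcm5 (-1.67 ± 0.35 log2, adjusted p = 0.00971) and Mcm4 (-1.18 ± 0.19 log2, adjusted p = 0.00371) were also lower in both arrays of MSC IV than in any other array.

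Mcm2, which forms the ring together with the genes above, was at 11.12 and 10.72 in MSC IV, against 10.39 and 11.37 in MSC I, 10.87 and 10.43 in MSC II, 11.47 and 11.39 in MSC III and 10.76 and 10.69 in MSC V. The highest pair was that of MSC III and the lowest single array that of MSC I, replicate 1, so MSC IV lay inside the range of the others, with a difference of -0.0028 ± 0.24 log2 (adjusted p = 0.994). Mcm7 had preparation means between 10.82 in MSC IV and 11.35 in MSC III, a range of 0.53 log2 (adjusted p = 0.469 in the F test). An intron of Mcm7 holds the microRNA genes Mir25, Mir93 and Mir106b; of their probe sets only that of Mir25 passed the filter, with levels between 6.78 and 7.46, and it was not called (adjusted p = 0.0718 in the F test).

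The start regions of the MCM genes with a window and of Tk1 are shown as a description. E2F factors are known to act through such regions, but their part in the levels above was not tested. Sequences are RefSeq windows of GRCm38.p6 that run along the gene's strand from 250 bases before to 50 after the annotated start, and capitals mark matches on either strand to 4 E2F-type 8-mers, TTTCCCGC, TTTGGCGC, TTTCGCGC and TTTGCCGC. Mcm6 (chr1:128359656-128359955, minus strand) held 3 matches, of which the first pair overlaps on opposite strands.
Mcm6: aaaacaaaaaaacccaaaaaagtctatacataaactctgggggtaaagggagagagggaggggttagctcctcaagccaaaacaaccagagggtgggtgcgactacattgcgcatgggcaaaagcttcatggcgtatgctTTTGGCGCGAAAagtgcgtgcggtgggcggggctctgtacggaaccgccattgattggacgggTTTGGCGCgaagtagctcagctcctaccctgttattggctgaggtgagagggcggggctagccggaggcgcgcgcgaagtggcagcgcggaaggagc
Mcm3 (chr1:20820263-20820562, minus strand) held 2 matches, both after the start.
Mcm3: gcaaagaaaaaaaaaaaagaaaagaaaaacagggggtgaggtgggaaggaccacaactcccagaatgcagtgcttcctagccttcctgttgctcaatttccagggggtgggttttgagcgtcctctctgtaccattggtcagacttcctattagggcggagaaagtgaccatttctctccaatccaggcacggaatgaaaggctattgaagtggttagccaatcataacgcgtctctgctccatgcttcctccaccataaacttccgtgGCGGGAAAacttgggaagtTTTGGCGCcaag
Mcm5 (chr8:75109259-75109558, plus strand) held 2 overlapping matches on opposite strands.
Mcm5: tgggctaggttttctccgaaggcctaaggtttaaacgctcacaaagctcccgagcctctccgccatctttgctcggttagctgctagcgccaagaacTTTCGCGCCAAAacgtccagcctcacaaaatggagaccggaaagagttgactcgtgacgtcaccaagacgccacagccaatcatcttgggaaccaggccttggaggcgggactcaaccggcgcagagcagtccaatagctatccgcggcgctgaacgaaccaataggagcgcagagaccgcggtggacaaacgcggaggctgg
Mcm7, which was not called, had 2 annotated windows, of which the other (chr5:138171217-138171516, minus strand) held 0 matches. The one shown (chr5:138171834-138172133, minus strand) held 2 matches.
Mcm7: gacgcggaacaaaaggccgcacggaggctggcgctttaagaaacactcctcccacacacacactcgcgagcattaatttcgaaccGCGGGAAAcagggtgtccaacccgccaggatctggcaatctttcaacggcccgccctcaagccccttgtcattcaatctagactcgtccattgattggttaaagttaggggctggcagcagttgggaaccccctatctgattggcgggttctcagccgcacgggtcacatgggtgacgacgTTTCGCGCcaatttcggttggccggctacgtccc
Mcm2 (chr6:88898731-88899030, minus strand) held none of these letters in its window.
Mcm2: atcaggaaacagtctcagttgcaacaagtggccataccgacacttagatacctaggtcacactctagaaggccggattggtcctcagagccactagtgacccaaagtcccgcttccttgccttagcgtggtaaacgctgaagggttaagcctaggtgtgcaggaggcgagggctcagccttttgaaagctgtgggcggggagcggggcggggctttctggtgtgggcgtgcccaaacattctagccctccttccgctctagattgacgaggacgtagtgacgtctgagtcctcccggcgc
Tk1 (chr11:117825965-117826264, minus strand), the member with the widest range, held none of them either.
Tk1: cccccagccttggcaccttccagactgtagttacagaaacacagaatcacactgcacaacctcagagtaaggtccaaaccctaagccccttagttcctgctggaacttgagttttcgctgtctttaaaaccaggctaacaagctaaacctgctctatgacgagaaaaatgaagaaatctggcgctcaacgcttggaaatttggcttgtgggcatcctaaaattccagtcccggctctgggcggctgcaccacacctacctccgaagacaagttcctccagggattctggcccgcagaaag
Of the 35 members, 29 had at least 1 window in the table; Mcm4, Gins1, Gins2, Prim2, Pole and Ccne2 had none. At least 1 match was found in 13 of the 29 genes (44.83%), against 2.6% of 27025 genes of the whole table, and in 13 of 34 member windows (38.24%), against 2.26% of 32851 windows. The letters CCAAT, on either strand, were found in 17 of the 29 genes (58.62%) and in 41.06% of all genes. Among the genes called in the F test 7 of 14 with a window held an E2F-type match (Mcm3, Mcm5, Mcm6, Cdt1, Pola1, Lig1 and Uhrf1), and among those not called 6 of 15 did (Mcm7, Orc1, Cdc6, Gins3, Pold1 and Rfc3). A match is a description of the sequence, not of binding, and a window without one says only that these letters are not in it.

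Of the 4 origin and licensing factors, 1 was lower in MSC IV. Cdc6, the ATPase that helps to load the MCM ring, was at 6.13 and 5.84 in MSC IV, against 7.08 and 7.52 in MSC I, 6.66 and 6.94 in MSC II, 7.05 and 7.71 in MSC III and 7.82 and 6.72 in MSC V. Both arrays of MSC IV lay below the rest, with a difference of -1.20 ± 0.30 log2 (2.3-fold lower; adjusted p = 0.0194), while its F test missed the threshold (adjusted p = 0.0553). Orc1, the largest subunit of the origin recognition complex, had levels close to the table median, between 5.35 in MSC IV replicate 2 and 7.54 in MSC III replicate 2, and was above that median in 4 arrays; its difference in MSC IV was -1.02 ± 0.40 log2 (adjusted p = 0.0826). Orc6, a further subunit of that complex, had a range of 0.48 log2. Cdt1, the loading factor that is destroyed once S phase begins, had an order of its own: it was at 9.32 and 10.17 in MSC I, against 10.42 and 10.33 in MSC II, 10.80 and 10.77 in MSC III, 9.67 and 9.46 in MSC IV and 10.66 and 10.14 in MSC V. MSC III was highest and MSC I replicate 1 lowest. It was lower in MSC I than in MSC III, with a difference of -1.04 ± 0.28 log2 (2.06-fold lower; adjusted p = 0.0308), a call lost with the replicate block.

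Of the 5 factors that turn the loaded ring into an active helicase, 3 were lower in MSC IV. Gins1, with a difference of -1.27 ± 0.34 log2 (2.41-fold lower; adjusted p = 0.0266), and Gins2, with -1.24 ± 0.27 log2 (2.36-fold lower; adjusted p = 0.0114), are subunits of the GINS complex that rides on the ring, and in both the arrays of MSC IV lay below the other 8. The Gins1 call was lost with no filter on low values (adjusted p = 0.0514) and once the mean of the others no longer held MSC I (adjusted p = 0.0596), in a range of 0.00663 to 0.29 over its alternatives. Gins3, a further subunit, was also lowest in both MSC IV arrays, with a difference of -0.42 ± 0.25 log2 (adjusted p = 0.227). Mcm10, which helps to start unwinding, was at 7.46 and 6.81 in MSC IV, against 8.94 and 9.44 in MSC I, 7.39 and 8.11 in MSC II, 8.43 and 9.11 in MSC III and 8.75 and 7.49 in MSC V. MSC IV replicate 1 lay above MSC II replicate 1, so the groups overlapped, and the difference of -1.32 ± 0.37 log2 (2.5-fold lower; adjusted p = 0.0313) was 1 of the 2 that the replicate block removed (adjusted p = 0.0537). Cdc45, the protein that couples ring and GINS, missed the threshold (-0.99 ± 0.33 log2, adjusted p = 0.0516).

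Among the polymerase and primase subunits, Pola1, Prim1 and Pole were lower in MSC IV. Pola1, the catalytic subunit of the polymerase that extends primers, was at 7.57 and 6.86 in MSC IV, against 8.54 and 8.89 in MSC I, 7.85 and 7.80 in MSC II, 8.52 and 9.30 in MSC III and 8.77 and 8.39 in MSC V. The arrays of MSC IV were lowest and those of MSC II next, with a difference of -1.29 ± 0.25 log2 (2.44-fold lower; adjusted p = 0.00771). Prim1, the catalytic subunit of primase, was at 8.55 and 8.28 in MSC IV, against 9.02 and 9.20 in MSC I, 9.31 and 9.71 in MSC II, 9.59 and 10.06 in MSC III and 10.20 and 9.43 in MSC V. Here MSC I, not MSC II, came closest to MSC IV, and the difference was -1.15 ± 0.23 log2 (2.22-fold lower; adjusted p = 0.00774). Pole, the catalytic subunit of the leading strand polymerase, differed by -1.30 ± 0.35 log2 (adjusted p = 0.0261) and was below the rest in both arrays; the call was lost with no filter on low values (adjusted p = 0.0507, in a range of 0.0136 to 0.405 over its alternatives). Prim2 (-0.85 ± 0.21), Pold1 (-0.82 ± 0.26), the catalytic subunit of the lagging strand polymerase, and Pola2 (-0.55 ± 0.20) had differences under 1 log2.

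None of the 4 clamp and loader genes was called in MSC IV against the others, where limma gave an adjusted p under 0.05 to Pcna alone. Pcna, the ring that holds polymerases on DNA, was at 11.56 and 11.25 in MSC IV, against 12.51 and 12.36 in MSC I, 11.64 and 11.93 in MSC II, 12.17 and 12.67 in MSC III and 12.85 and 12.52 in MSC V. MSC IV lay below all other arrays and MSC II next, and the F test called it (adjusted p = 0.00914), whereas the difference of -0.93 ± 0.17 log2 (adjusted p = 0.00618) in MSC IV was under the minimum of 1. A second Pcna probe set differed from the one used by at most 0.03 log2. The loader subunits Rfc3, Rfc4 and Rfc5 were called in no comparison. Rfc4 was at 10.92 and 11.07 in MSC I, against 11.45 and 11.40 in MSC II, 11.36 and 11.73 in MSC III, 11.49 and 11.37 in MSC IV and 11.92 and 11.56 in MSC V. MSC I was lowest, MSC V highest, and MSC IV lay among the others at 0.0047 ± 0.14 log2 (adjusted p = 0.982).

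Of the pair of enzymes that finish Okazaki fragments, Lig1 was lower in MSC IV. Lig1, the ligase that seals the nick, was at 7.26 and 7.02 in MSC IV, against 9.34 and 9.09 in MSC I, 7.98 and 8.75 in MSC II, 8.36 and 9.31 in MSC III and 9.59 and 8.36 in MSC V. MSC IV did not overlap the rest, with a difference of -1.71 ± 0.37 log2 (3.27-fold lower; adjusted p = 0.0113). Fen1, the nuclease that trims the flap before sealing, had preparation means between 8.19 and 8.74 log2 and a difference of -0.35 ± 0.28 (adjusted p = 0.359).

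Of the 4 enzymes of nucleotide supply, Tk1 and Rrm2 were lower in MSC IV and had the widest ranges of all members, while Rrm1 (1.13 log2) and Tyms (1.03 log2) had narrower ones. Tk1, the thymidine kinase of cycling cells, was at 7.50 and 6.997 in MSC IV, against 10.20 and 10.03 in MSC I, 8.40 and 9.16 in MSC II, 8.40 and 9.62 in MSC III and 10.26 and 8.95 in MSC V. MSC IV lay below all others, the arrays of MSC I and MSC V replicate 1 were at the top, and the arrays of MSC III and of MSC V were more than 1 log2 apart. The difference in MSC IV was -2.13 ± 0.41 log2 (4.37-fold lower; adjusted p = 0.00775); a second Tk1 probe set, up to 0.615 log2 from the one used, gave -2.50. Rrm2, the regulatory subunit of ribonucleotide reductase that is made in S phase, was at 9.14 and 8.35 in MSC IV, against 11.05 and 11.24 in MSC I, 7.99 and 8.65 in MSC II, 10.25 and 11.57 in MSC III and 11.43 and 10.04 in MSC V. Both MSC II and MSC IV were low and overlapped each other, and none of their arrays reached the other 6. Rrm2 differed by -1.53 ± 0.45 log2 (2.89-fold lower; adjusted p = 0.035) in MSC IV, lost with the replicate block (adjusted p = 0.0586). Rrm1, the large subunit of the same enzyme (-0.97 ± 0.23 log2, adjusted p = 0.0183), and Tyms, the thymidylate synthase (-0.74 ± 0.23 log2, adjusted p = 0.0423), were under the minimum difference. With the replicate block limma gave Tyms an adjusted p of 0.0723 in MSC IV.

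Of the regulators, E2f1, Ccne1 and Uhrf1 were lower in MSC IV and Ccne2 was not called. E2f1, an activating E2F factor, was at 8.39 and 8.15 in MSC IV, against 9.76 and 9.94 in MSC I, 8.61 and 8.86 in MSC II, 9.35 and 9.74 in MSC III and 10.10 and 9.54 in MSC V. Its order was that of Mcm6, MSC IV lowest with no overlap and MSC II next, with a difference of -1.22 ± 0.18 log2 (2.32-fold lower; adjusted p = 0.00239). Ccne1, cyclin E1, was at 8.54 and 8.68 in MSC IV, against 10.40 and 10.84 in MSC I, 9.51 and 9.74 in MSC II, 10.28 and 10.64 in MSC III and 10.60 and 9.42 in MSC V. MSC IV lay below all others, with a difference of -1.57 ± 0.28 log2 (2.97-fold lower; adjusted p = 0.00557), and MSC V replicate 2 was the lowest of the rest. Over the alternative settings the adjusted p lay between 0.00176 and 0.116 for E2f1 and between 0.000862 and 0.12 for Ccne1. Uhrf1, which brings the maintenance DNA methyltransferase to new DNA, differed by -1.32 ± 0.33 log2 (adjusted p = 0.0206) with MSC IV replicate 1 inside the range of MSC II. Ccne2, cyclin E2, was low in both MSC II (8.61) and MSC IV (8.67), and its difference in MSC IV was -0.62 ± 0.30 log2 (adjusted p = 0.147).

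**Figure D3:**
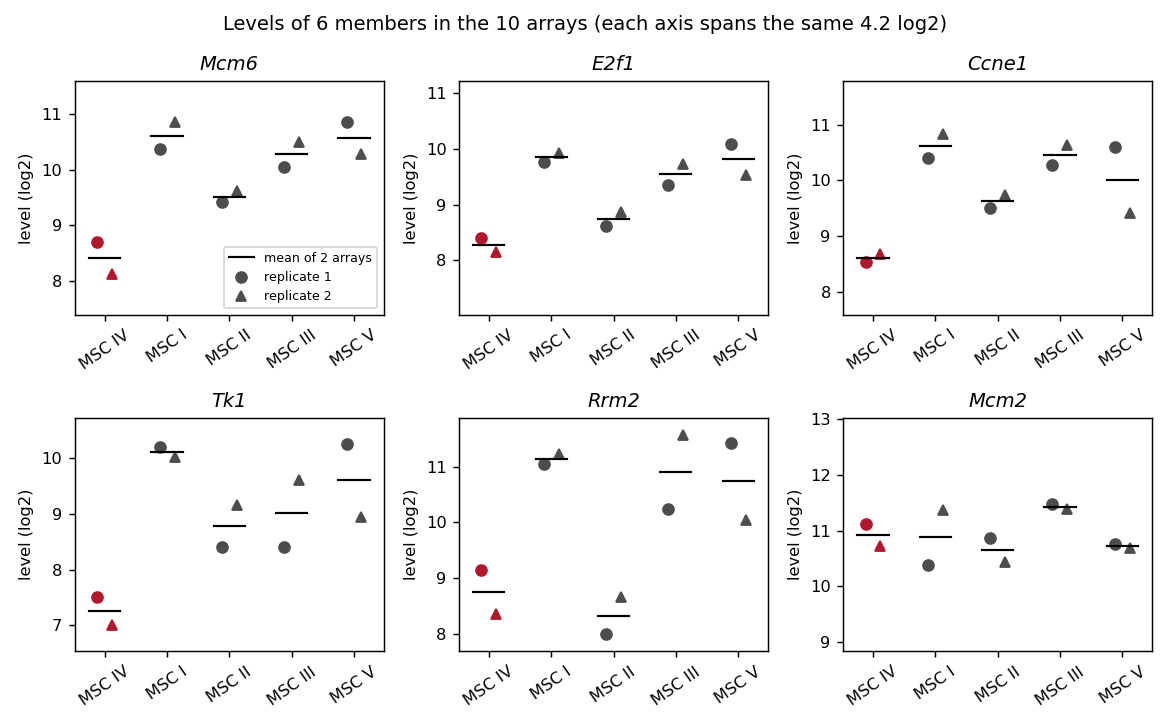
Log2 levels of 6 members, with circles for replicate 1, triangles for replicate 2, lines for the means of 2 arrays and MSC IV in red. Mcm6, E2f1, Ccne1 and Tk1 are lowest in both MSC IV arrays, Rrm2 is low in MSC IV and MSC II, and Mcm2 shows no such gap.

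Few members set the other preparations apart. In MSC I, 3 members were called higher than in the mean of the rest, Rrm2 (1.47 ± 0.45 log2, adjusted p = 0.0323), Tk1 (1.45 ± 0.41, adjusted p = 0.0253) and Mcm10 (1.24 ± 0.37, adjusted p = 0.0304). That share was near the 7.73% of all tested genes called higher. The replicate block kept 2 of the 3, Tk1 and Mcm10, with a background of 7.45%, and 0 were left once MSC IV was taken out of the mean that MSC I was set against. The count was also 0 with no filter on low values or without MSC I replicate 2, 1 on leaving out the first array of MSC I or the second of MSC IV, and 6 on leaving out the first of MSC V. In the other direction limma called 0 members, where 5.22% of tested genes were called, and the unadjusted p was under 0.05 for 15 members in both directions together, against 52.2% of all tested genes. In MSC II the 1 called member was Rrm2, with a difference of -2.06 ± 0.45 log2 (4.18-fold lower, adjusted p = 0.0186). This share was near the 2.69% of all tested genes called lower (2.22% with the replicate block, where Rrm2 stayed called). That call was lost without either array of MSC II. In MSC III and MSC V limma called 0 members in either direction, with an unadjusted p under 0.05 for 6 members in MSC III (23.0% of all tested genes) and for 8 in MSC V (29.9% of all tested genes). The background in MSC III was 1.31% higher and 0.957% lower, and in MSC V it was 2.11% higher and 1.44% lower. The member medians were 0.40 log2 in MSC I, -0.21 in MSC II, 0.37 in MSC III and 0.41 in MSC V, each taken against a mean that holds MSC IV.

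Most calls between pairs of preparations were in pairs with MSC IV, and pairs that share a preparation share its arrays. In all, 23 members were called in at least 1 of the 10 pairs and 12 in none, where 31.9% of all tested genes were called in at least 1; with the replicate block it was 20 members and 29.8%. Those never called were Mcm2, Mcm7, Orc1, Orc6, Cdc45, Gins3, Pola2, Rfc3, Rfc4, Rfc5, Fen1 and Ccne2. MSC I exceeded MSC IV in 20 members (background 12.3%; 19 members and 11.8% with the replicate block), led by Tk1 (2.87 ± 0.53 log2, adjusted p = 0.00397). MSC III exceeded MSC IV in 15 members (background 5.52%; 8 members and 4.15% with the block). MSC IV was lower than MSC V in 17 members (background 7.46%; 11 members and 6.06% with the block). MSC II exceeded MSC IV in 2 members, Mcm6 and Prim1, a share near the background of 5.9% (0 members and 4.89% with the block).

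These pair counts leaned on single arrays, with rises as well as falls. Leaving out either array of MSC V raised the counts of members by which MSC I and MSC III exceeded MSC IV. Leaving out MSC V replicate 2 raised the count of members lower in MSC IV than in MSC V. Without MSC IV replicate 2, MSC I exceeded MSC IV in 6 members, MSC III and MSC II in 0 each, and MSC IV was lower than MSC V in 2. Without MSC IV replicate 1, MSC III exceeded MSC IV in 8 members and MSC IV was lower than MSC V in 11. MSC I exceeded MSC IV in 13 members without MSC I replicate 1 and in 12 without its replicate 2. MSC III exceeded MSC IV in 0 members without MSC III replicate 2, and in 9 without MSC III replicate 1 or either array of MSC I. Without MSC V replicate 1, MSC IV was lower than MSC V in 5 members. MSC II exceeded MSC IV in 0 members without either array of MSC II, in 1 without either array of MSC I and in 5 without either array of MSC V.

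Among the pairs without MSC IV, the called members were Rrm2, Mcm10, E2f1, Mcm6 and Cdt1. MSC I exceeded MSC II in 4 members, Rrm2 with a difference of 2.82 ± 0.57 log2 (7.08-fold higher; adjusted p = 0.00742), Mcm10, E2f1 and Mcm6, against a background of 8.11% (3 members and 7.54% with the replicate block). MSC II was lower than MSC V in 3 members, Rrm2, E2f1 and Mcm6 (background 3.21%), and lower than MSC III in Rrm2 alone (background 1.51%); with the block none of these was called (backgrounds 2.21% and 0.948%). In the fit without the block the unadjusted p was under 0.05 for 8 members between MSC II and MSC V (32.3% of all tested genes) and for 7 between MSC II and MSC III (24.9%). Leaving out either array of MSC II also left 0 calls in both pairs, as did leaving out MSC V replicate 1 in the pair with MSC V and either array of MSC I, MSC III or MSC IV in the pair with MSC III. The 4 calls between MSC I and MSC II became 1 without MSC II replicate 1, 2 without MSC I replicate 2 or MSC II replicate 2, and 7 without either array of MSC V. MSC I was lower than MSC III in Cdt1 alone (background 4.85%; 0 members and 4.24% with the block), a call also lost without MSC I replicate 1 or either array of MSC III. No member was called between MSC I and MSC V or between MSC III and MSC V, where the unadjusted p was under 0.05 for 3 members (38.2% of all tested genes) and 1 member (22.9%). Between MSC I and MSC V, 2 members were higher in MSC I without MSC V replicate 1, and 1 was lower without MSC I replicate 2 or MSC V replicate 2. The background was 6.1% higher and 4.43% lower for MSC I against MSC V, and 1.03% higher and 1.04% lower for MSC III against MSC V.

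The 2 arrays of a preparation were not alike in these genes. The median standard deviation between replicate arrays was 0.37 log2 over the members and 0.18 over all tested genes, and the median standard deviation of the 5 preparation means was 0.53 and 0.30 in the same order. In MSC V, replicate 1 was the higher array for all 35 members, with a median gap of 0.79 log2, and 14 members differed by at least 1 log2, against 3.95% of all tested genes. In MSC III, replicate 2 was higher for 33 members, with a median of replicate 1 minus replicate 2 of -0.56. In MSC IV, replicate 1 was higher for 33 members (median 0.27), and in MSC I and MSC II replicate 2 was higher for 29 members each (medians -0.26 and -0.34). Over all tested genes replicate 1 was the higher array in 48.8% (MSC I), 45.8% (MSC II), 49.3% (MSC III), 52.5% (MSC IV) and 53.6% (MSC V), with medians between -0.03 and 0.03. Since the differences of each gene sum to 0, the signs of the 5 preparations are not independent.

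**Figure D4:**
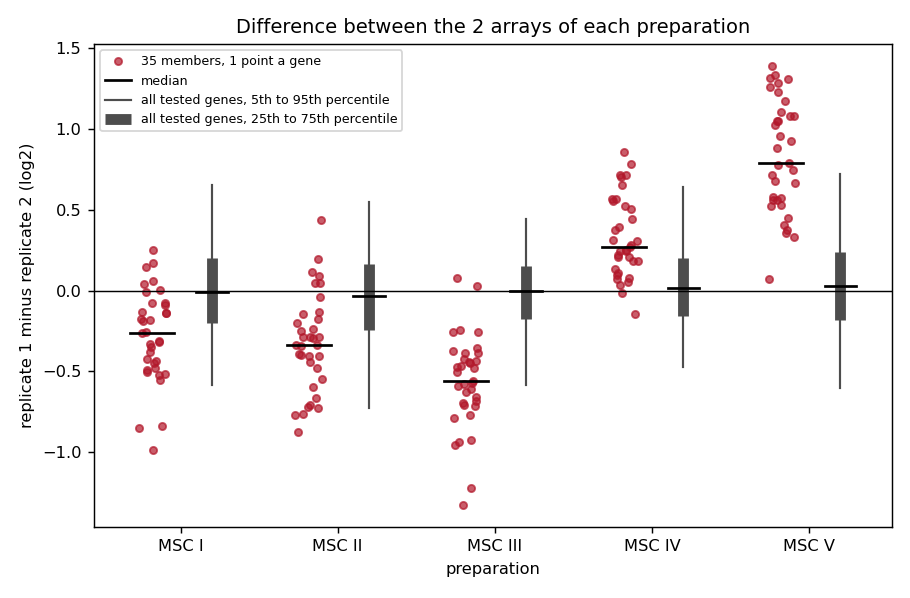
Points are replicate 1 minus replicate 2 in log2 for the 35 members of each preparation, and grey bars give percentiles of the same difference over the 10971 tested genes. The member medians are 0.79 in MSC V and -0.56 in MSC III, while those of all tested genes lie between -0.03 and 0.03.

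The highest array was MSC V replicate 1 for 23 of the 35 members and the lowest was MSC IV replicate 2 for 26; over all tested genes these arrays were highest in 9.91% and lowest in 16.5%. Rrm2 had the widest gap of any member, in MSC V (1.39 log2), followed by Orc1 in MSC V (1.33), and Rrm2 was also -1.33 apart in MSC III. Mcm2 had its largest gap in MSC I instead, where replicate 1 minus replicate 2 was -0.98 log2, and Cdt1 likewise (-0.85). Across the 10 arrays, which share preparations, 20 members had a correlation of at least 0.9 with the median of the other members, the closest being Cdc6 (r = 0.988), Mcm3 (r = 0.982) and Uhrf1 (r = 0.979). The 5 members with r under 0.6 were Cdt1 (0.567), Rfc3 (0.527), Rfc5 (0.508), Mcm2 (0.215) and Rfc4 (0.156).

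Further genes of the same pathways were read from lists of their own. Of all tested genes 29.1% were called in the F test (24.8% with the block), and 7.7% were lower in MSC IV (7.16% with the block). In MSC IV the median difference was -0.08 log2 over 8 other licensing and origin factors and -0.68 over 12 other fork factors. It was -0.11 over 15 other polymerase, loader and RPA genes and -0.47 over 6 other nucleotide supply genes. The members had a median of -1.02 and all tested genes 0.01. Of 8 other licensing and origin factors limma called 0 in the F test (0 with the replicate block), while the unadjusted p was under 0.05 for 6 of them and for 62.5% of all tested genes. Of 12 other fork factors 2 were called (1 with the block), Topbp1 and Timeless. In MSC IV 3 of them were lower (2 with the block): Clspn (-1.21 log2, adjusted p = 0.0423), Topbp1 (-1.16, adjusted p = 0.00567) and Wdhd1 (-1.08, adjusted p = 0.0152). Clspn encodes claspin, a checkpoint mediator at the fork, and Topbp1 a factor in origin firing; Clspn, Wdhd1 and, further on, Asf1b and E2f7 were not called in the F test and were named after their values were seen. Of 15 other polymerase, loader and RPA genes 2 were called (0 with the block), Pole2 and Pold4, and Pole2 was lower in MSC IV (-1.53, adjusted p = 0.0148). With the block 1 gene of this list was lower there. Of 6 other nucleotide supply genes 1 was called in both fits, Samhd1, a nucleotide hydrolase, and it was highest in MSC I.

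The chromatin and G1 lists held more calls, though with the block their shares were near the 24.8% of all tested genes. Without the block 29.1% of all tested genes were called, and 7.7% were lower in MSC IV (7.16% with the block). Of 7 genes of chromatin assembly 3 were called (2 with the block), Dnmt1, Chaf1b and Asf1a. Dnmt1, the maintenance methyltransferase that Uhrf1 guides, was at 8.95 and 8.62 in MSC IV, against 10.24 and 10.40 in MSC I, 9.45 and 10.06 in MSC II, 9.87 and 10.36 in MSC III and 11.19 and 10.27 in MSC V. Both arrays of MSC IV were lowest (-1.44 log2, adjusted p = 0.00633), and Chaf1b (-1.23, adjusted p = 0.00743) and Asf1b (-1.11, adjusted p = 0.0327), histone chaperones, were lower there too. With the block 2 genes of this list were lower in MSC IV, and the list median there was -0.985 log2. Of 16 other E2F and G1 genes 7 were called (5 with the block), and the 6 with the widest ranges were E2f8, Ccnd1, Rbl1, Cdc25a, Rb1 and Ccnd3. In MSC IV this list had a median difference of -0.20 log2, with 2 genes lower (2 with the block). Without the block these were E2f7, a repressing E2F factor (-1.86 log2, adjusted p = 0.0234), and Rbl1, a relative of the retinoblastoma gene (-1.20, adjusted p = 0.00639). Rb1 itself was at 10.10 and 10.32 in MSC IV and at most 9.66 elsewhere (0.87 log2, adjusted p = 0.00311, under the minimum difference). Ccnd1, cyclin D1, was lower in MSC II, at 10.72 and 11.16 against at least 11.98 elsewhere. Of 12 replication-dependent histone genes with a named probe set 1 was called in both fits, H1f2, and it did not have the order of the members, being lowest in MSC II and MSC III. In MSC IV this histone list had a median difference of -0.46 log2 with 0 genes called lower. H1f2 alone was above 0 there (0.60 log2).

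Mitosis genes act after S phase. Of 19 tested, 13 were called in the F test and 1 with the replicate block, against 29.1% and 24.8% of all tested genes. In MSC IV 9 of the 19 were lower (4 with the block), against 7.7% of all tested genes (7.16% with the block). Among the 9 were the kinases Ttk (-1.65 log2, adjusted p = 0.0305) and Bub1 (-1.54, adjusted p = 0.0337) of the spindle checkpoint. The median difference of the mitosis genes was -1.41 log2 in MSC IV, -1.06 in MSC II and 1.23 in MSC I, against -1.02, -0.21 and 0.40 for the replication genes. For mitosis genes the arrays were also further apart, with a median replicate standard deviation of 0.73 log2, and in MSC V replicate 1 was higher for all 19. In MSC II the pair of arrays differed by a median of -1.28 log2 in mitosis genes and -0.34 in the members. The part of these genes in the results for the members was not tested.

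**Figure D5:**
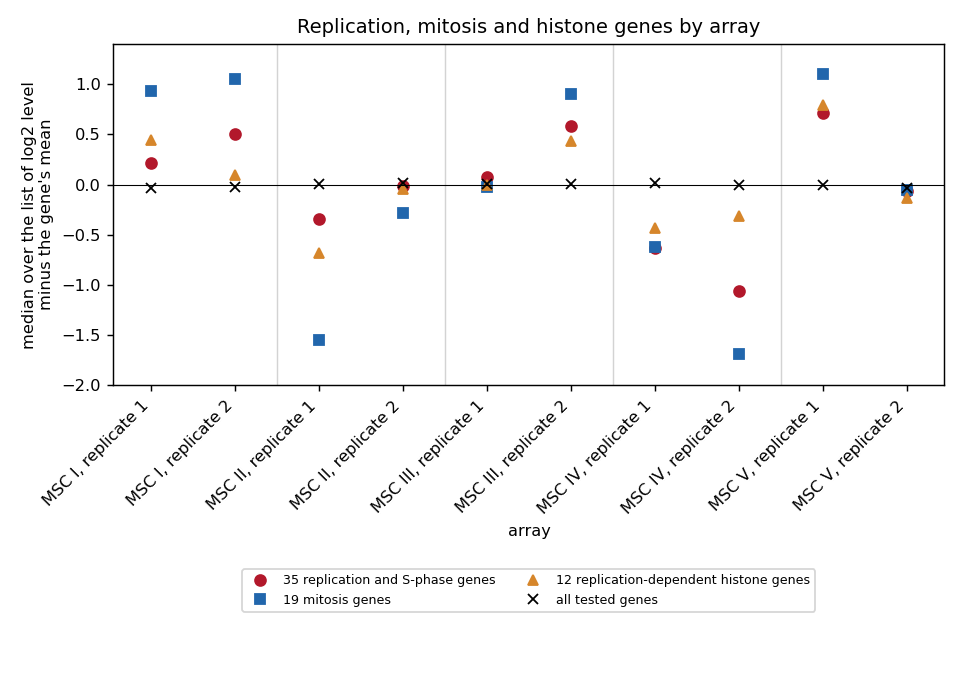
For each array, symbols give the median over a list of the log2 level minus the gene's mean over preparations. In MSC IV replicate 2 the median is -1.06 for the members and -1.68 for 19 mitosis genes, in MSC V replicate 1 it is 0.71 and 1.10, and all tested genes stay between -0.03 and 0.02.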

How the data were processed

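Levels are the log2 values of the table that the authors deposited, per the labels 1 column for each of the 10 arrays. RMA and Partek are named in the submitters' processing notes; their versions and the order of steps are not given in the sources used here. In all 35399 probe sets the means of the replicate 1 and replicate 2 arrays were equal within 0.0001 log2, a step that no label records. It was found from the values.

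The platform's probe table gave 1 symbol to 21789 probe sets, several to 1621 and none to 11989, so 19938 genes were named, 999 of them by several probe sets, where the brightest on average stood for the gene. Genes above the table median in at least 2 arrays were tested (10971). limma 3.58.1 in R 4.3.3 fitted 1 mean for each preparation to log2 values, with eBayes and Benjamini-Hochberg adjustment over all tested genes in each comparison. Calls needed both an adjusted p below 0.05 and 1 log2 or more of difference (for the F test, of range between means). Each preparation was set against the mean of the other four, and in all 10 pairs. Summaries and plots used Python 3.11.15, pandas 2.3.3 and matplotlib 3.10.9, and the fit was tested on simulated data.

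The fit with the replicate number as a term (the replicate block) had 4 residual degrees of freedom and the one without it 5. Its counts are printed because of the equal replicate means, not because the numbers pair the samples: no label says so, and the correlation of deviations of same-numbered arrays between preparations lay between -0.5547 and 0.2032, values that the equal means also shape. Alternatives were each array left out, other filters, scalings, probe set rules and variance models, no minimum difference, and MSC I or MSC IV left out of the mean of the others. Leaving out an array within the block fit was chosen after seeing the data. With 2 arrays for each preparation, the number of arrays limits the precision.

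The members and the other gene lists were chosen with earlier results of these data known. Of the other lists, genes called in the F test were named, at most 6 from each list by the widest range; Clspn, Wdhd1, Asf1b and E2f7, lower in MSC IV but not called in the F test, were named after their values were seen. Ccnb1 and 5 histone genes of the lists had no probe set of their own symbol in the probe table and were not analysed here.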

Additional observations from a re-analysis of the deposited data

How the results depend on the processing

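The count of members higher in MSC IV was 0 in all settings run, and the 17 called lower stayed between 3 and 20 when single arrays were left out. Members called over all preparations, 18 in the report, numbered 11 with no filter on low values, 10 with the replicate block and 5 to 26 with single arrays left out. Members higher in MSC I, 3 in the report, numbered 0 with no filter or with MSC IV left out of the others, 6 with no minimum difference, and 0 to 6 with single arrays left out. With no minimum difference 1 member was lower in MSC I, 2 were lower in MSC II (0 to 1 with single arrays left out) and 3 were higher in MSC V, where 1, Mcm6, was called with MSC I left out of the others. Members called in at least 1 pair numbered 8 to 27 with single arrays left out. With the replicate block as well as an array left out, the ranges were 1 to 19 over all preparations (9 without MSC III replicate 1), 0 to 20 lower in MSC IV, 0 to 7 higher and 0 to 1 lower in MSC I, 0 to 1 lower in MSC II and 4 to 25 in pairs (9 without MSC I replicate 1, 12 without MSC IV replicate 1). The cause of these changes was not tested. With no filter more genes were tested, and with an array left out the fit held fewer arrays. Because the deposited replicate means are equal, an array left out still shapes the values of the others, and a test of the replicate number itself says nothing.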
